A study of Homo sapiens with 6 samples.

Results

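The integrin subunits described here are 10 genes measured in A549, an established line of human lung adenocarcinoma cells: ITGA2, ITGA3, ITGA5, ITGA6 and ITGAV, which encode alpha chains, and ITGB1, ITGB4, ITGB5, ITGB6 and ITGB8, which encode beta chains. They were found by symbol among the 17787 gene symbols of the deposited tables, and all 10 were listed, each on 1 row, in all 6 libraries. By their labels, 3 libraries belong to siNC, whose genotype label is wild type, and 3 to siFOXD3, named after a small interfering RNA (an RNA that lowers 1 chosen message) against FOXD3, a forkhead transcription factor. Both groups are A549 and no other allele or agent is named for either. The sources used here give no siRNA sequence, dose or time of harvest, and the labels do not state whether each replicate came from its own culture, so p-values describe the spread among these libraries alone, which may be technical.

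Integrins are receptors that hold a cell to the matrix around it. Each is a pair of an alpha and a beta chain, and the pair decides which ligand is bound: ITGB1 joins many alpha chains, ITGB4 joins ITGA6 alone, and ITGAV joins ITGB1, ITGB5, ITGB6 or ITGB8. Inside the cell the beta tails are bound by talin and kindlin, which switch the receptor on, and in epithelia ITGB4 reaches keratin filaments through plectin in the hemidesmosome, an anchor to the basement membrane.

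RefSeq promoter windows (GRCh38.p14, 250 bases before to 50 bases after an annotated start) were held for 8 of the 10 members, in 13 windows, since some have several starts. ITGA3 and ITGB4 had no entry. The windows of 3 genes are shown, all 5′ to 3′ on the gene's own strand: ITGA5 (chr12:54419217-54419516, minus strand) and ITGB6 (chr2:160200223-160200522, minus strand), because both genes fell strongly, and ITGB8 (chr7:20330650-20330949, plus strand), because it was not called. Capitals mark matches on either strand to a forkhead core (TGTTTA), an AP-1 motif (TGANTCA) or a GC box (GGGCGG), and none of the marked matches overlap.
ITGA5: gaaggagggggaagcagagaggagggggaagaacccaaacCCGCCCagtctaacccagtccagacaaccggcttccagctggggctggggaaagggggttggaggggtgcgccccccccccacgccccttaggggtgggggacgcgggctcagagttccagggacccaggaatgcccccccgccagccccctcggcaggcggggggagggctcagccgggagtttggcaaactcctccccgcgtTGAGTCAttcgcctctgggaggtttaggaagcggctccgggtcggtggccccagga
ITGB6: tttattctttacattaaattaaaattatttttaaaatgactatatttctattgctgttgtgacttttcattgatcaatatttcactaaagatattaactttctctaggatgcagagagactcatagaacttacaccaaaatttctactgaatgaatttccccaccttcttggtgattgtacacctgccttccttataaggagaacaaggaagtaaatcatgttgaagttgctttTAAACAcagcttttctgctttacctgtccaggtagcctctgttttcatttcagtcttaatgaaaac
ITGB8: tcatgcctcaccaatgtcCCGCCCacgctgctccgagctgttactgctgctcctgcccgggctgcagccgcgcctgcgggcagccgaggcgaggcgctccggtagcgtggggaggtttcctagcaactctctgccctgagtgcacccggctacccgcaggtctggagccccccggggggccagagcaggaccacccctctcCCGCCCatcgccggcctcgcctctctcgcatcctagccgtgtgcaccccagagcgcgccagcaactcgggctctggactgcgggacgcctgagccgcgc
The ITGA5 window held 1 AP-1 match and 1 GC box and was 69.3% G or C. The ITGB6 window held 1 forkhead core and no GC box and was 31.7% G or C, and the ITGB8 window held 2 GC boxes and was 71.7% G or C. The median over all 35116 windows was 58.7%. The forkhead core lay in 12.3% of all windows and in 3 of the 13 member windows (ITGA6, ITGB1 and ITGB6). ITGA6 and ITGB1 also have a window without it. The AP-1 motif lay in 7.71% of all windows and in 1 of the 13 member windows (ITGA5). The GC box lay in 45.0% of all windows and in 9 of the 13 member windows, from 6 members. No member window held the NF-kB motif that was searched, which 0.558% of all windows held. A match describes the letters in these windows and is not a site of binding.

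The files give 1 value per gene and library in FPKM, sequenced fragments scaled for transcript length and for library size, so levels of different genes can be set side by side. The libraries listed 15649 to 16286 symbols, with sums of 596623 to 618389 FPKM. Read counts are not in the files, and depth was estimated at 7520000 to 8760000 fragments per library. FOXD3 itself was near the detection limit, with 0.152, 0.291 and 0.134 FPKM in the siNC libraries, 0.0749 FPKM in the second siFOXD3 library and no entry in the other siFOXD3 libraries. All 6 epithelial markers were far above 1 FPKM, with EPCAM at 114 ± 2.35 FPKM in siNC (mean ± SD, n = 3). The surfactant gene SFTPC was not listed in siNC, and 3 of 8 alveolar type II markers reached 1 FPKM in any siNC library. The labels' extraction text speaks of retina, and none of 10 photoreceptor markers reached 1 FPKM in any library (highest 0.952 FPKM). Of the fibroblast markers 1 of 8 (COL1A1), and of the endothelial markers 1 of 6 (CDH5), reached 1 FPKM in any library.

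**Figure D1:**
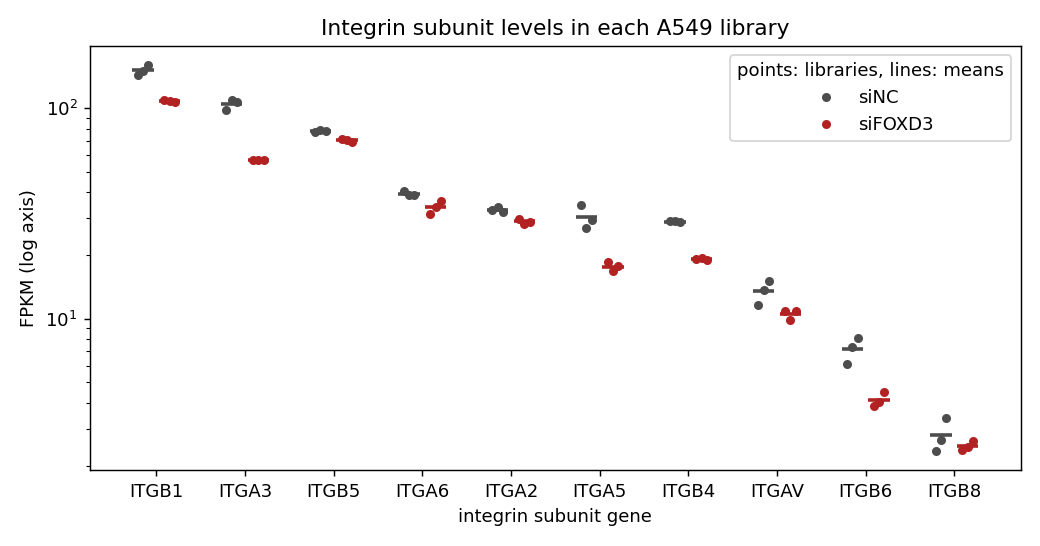
FPKM of each integrin subunit gene (log axis) in the 3 siNC (grey) and 3 siFOXD3 (red) libraries, with lines at the group means. The groups of 9 genes do not overlap, all lower in siFOXD3, and those of ITGB8 do.

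Integrin message was lower in siFOXD3, by amounts that differed between subunits. By limma's test 9 of the 10 members fell, none rose, and ITGB8 was not called. The falls ran from 45.7% of the siNC mean for ITGA3 to 9.62% for ITGB5. The summed level of the 10 members averaged 489 ± 12.1 FPKM over the siNC libraries and 352 ± 1.46 FPKM over the siFOXD3 libraries, that of the alpha members 221 ± 2.59 and 148 ± 2.42 FPKM, and that of the beta members 268 ± 10.1 and 204 ± 2.35 FPKM (mean ± SD, n = 3 each).

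Tests were run with limma on log2(FPKM + 1) over the 12555 genes with at least 1 FPKM in at least 3 libraries, and a gene was called at a Benjamini-Hochberg adjusted p under 0.05, two-sided. All 10 members passed that filter. A change was common in this comparison: 65.9% of all genes tested were called, 38.7% lower and 27.2% higher, and 41.1% were lower in siFOXD3 with no overlap of the groups. The calls were 3415 higher and 4863 lower as deposited and 4255 higher and 3835 lower with quantile normalization, which moved the all-gene median log2 fold change by 0.10, from -0.08 to 0.03. The members' median log2 fold change was -0.40 as deposited, -0.31 with median-of-ratios scaling and -0.36 with quantile normalization. For each of the 9 called members the 3 siFOXD3 values lay below the 3 siNC values, and an exact permutation test, two-sided, returned p = 0.1, which is the minimum for 3 against 3. In bulk libraries fewer cells carrying a message and less message per cell cannot be told apart.

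**Figure D2:**
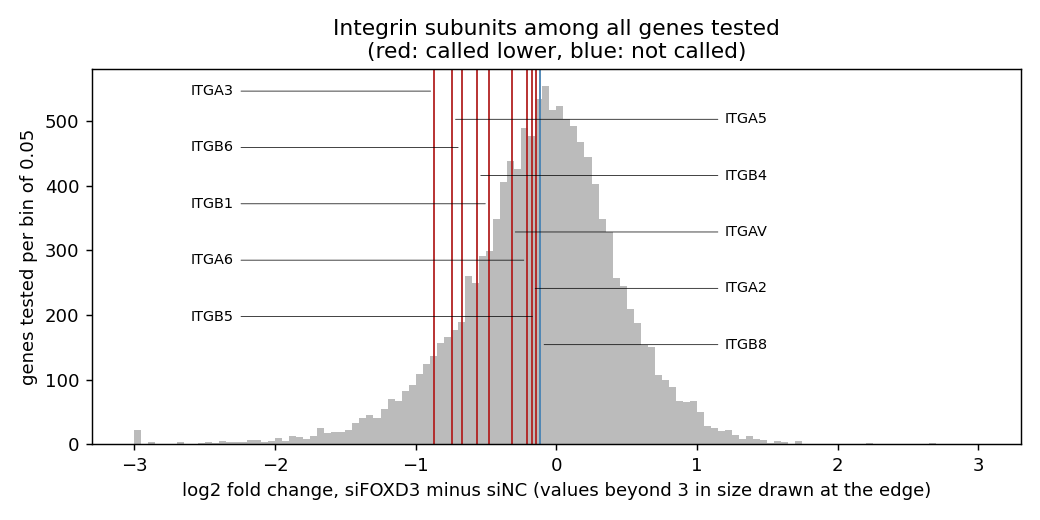
Histogram of the log2 fold change (siFOXD3 minus siNC) of the 12555 genes tested, in bins of 0.05, with a line for each integrin subunit. The 9 called members (red) lie between -0.87 and -0.14 and ITGB8 (blue) at -0.11, inside the body of the distribution.

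ITGB1, the beta chain shared by the collagen, laminin and fibronectin receptors, was the most abundant member in both groups. It stood at 143, 151 and 160 FPKM in the siNC libraries (replicates in order, here and below) and at 109, 109 and 106 FPKM in siFOXD3. The groups did not overlap, with means of 151 ± 8.34 and 108 ± 1.42 FPKM. ITGB1 fell by 0.48 ± 0.05 on the log2(FPKM + 1) scale (SE; limma, adjusted p = 1.61e-05 by Benjamini-Hochberg), and 21.9% of the genes tested had a lower fold change.

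ITGA3 pairs with ITGB1 as a laminin receptor of epithelial cells, and it had the largest fall among the members. Its values were 98.1, 109 and 106 FPKM in siNC and 56.8, 56.8 and 56.8 FPKM in siFOXD3. The siFOXD3 libraries were nearly equal (SD 0.0416 FPKM), and all lay far below the siNC libraries. The counting error of ITGA3 was estimated at 2.16% (CV) at the lowest fragment estimate. The siFOXD3 values lay closer together than that, so their closeness is no measure of precision. The fall was 0.87 ± 0.05 on the log2 scale (limma, Benjamini-Hochberg adjusted p = 3.95e-07), and 8.60% of the genes tested had a lower fold change.

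ITGA6 is also a laminin-binding alpha chain, and it is the partner of ITGB4. ITGA6 stood at 40.4, 38.5 and 38.5 FPKM in siNC and 31.4, 34.0 and 36.2 FPKM in siFOXD3, and ITGB4 at 29.1, 29.1 and 28.6 FPKM in siNC and 19.3, 19.4 and 19.1 FPKM in siFOXD3. ITGB4 was tight within each group, more so than its estimated counting error (3.35%, CV, at the lowest fragment estimate). ITGB4 fell by 0.56 ± 0.05 on the log2 scale (limma, Benjamini-Hochberg adjusted p = 6.83e-06). ITGA6 was spread over a wider range in siFOXD3 and fell by 0.21 ± 0.06 (adjusted p = 0.0130). The call of ITGA6 was lost with median-of-ratios scaling (-0.12, adjusted p = 0.123) and without siFOXD3 replicate 1 (-0.15, adjusted p = 0.0651), its lowest library.

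ITGA2 forms the collagen receptor of epithelial cells and platelets with ITGB1. It was at 32.7, 33.9 and 32.0 FPKM in siNC and 29.9, 28.1 and 28.9 FPKM in siFOXD3, groups that lay close together without overlap. ITGA2 fell by 0.18 ± 0.05 on the log2 scale (limma, Benjamini-Hochberg adjusted p = 0.0141). That call was lost with median-of-ratios scaling (-0.09, adjusted p = 0.159) and without siFOXD3 replicate 2 (-0.16, adjusted p = 0.0594).

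ITGA5, the alpha chain of the main fibronectin receptor, was at 34.8, 27.0 and 29.5 FPKM in siNC and at 18.5, 16.9 and 17.7 FPKM in siFOXD3. The siNC libraries varied more than those of siFOXD3 (SD 3.98 against 0.830 FPKM), with siNC replicate 1 the highest. ITGA5 fell by 0.74 ± 0.09 on the log2 scale (limma, Benjamini-Hochberg adjusted p = 3.36e-05), and by 0.65 without siNC replicate 1.

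ITGAV is the alpha chain of receptors that read the RGD motif of fibronectin, vitronectin and latent TGF-beta. Its levels were 11.6, 13.7 and 15.1 FPKM in siNC and 10.9, 9.87 and 10.9 FPKM in siFOXD3, so that the lowest siNC library lay just above the siFOXD3 range. It fell by 0.32 ± 0.09 on the log2 scale (limma, Benjamini-Hochberg adjusted p = 0.0116).

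Of its beta partners, ITGB5, which forms a vitronectin receptor, was by far the most abundant, at 77.3, 78.4 and 78.2 FPKM in siNC and 71.7, 70.6 and 69.2 FPKM in siFOXD3. ITGB5 fell by 0.14 ± 0.04 on the log2 scale (limma, Benjamini-Hochberg adjusted p = 0.0149). Its call was lost with median-of-ratios scaling (-0.06, adjusted p = 0.299) and without siFOXD3 replicate 3 (-0.13, adjusted p = 0.0650).

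ITGB6, an epithelial chain that with ITGAV activates latent TGF-beta, was at 6.08, 7.37 and 8.14 FPKM in siNC and 3.85, 4.04 and 4.47 FPKM in siFOXD3. The groups were well apart, and the fall was 0.67 ± 0.11 on the log2 scale (limma, Benjamini-Hochberg adjusted p = 0.000284). With pseudocounts of 0.1 and 5 it was at -0.78 and -0.42, as the scale understates the change of low genes. ITGB8, the other chain that with ITGAV activates latent TGF-beta, was the least abundant member, at 2.36, 2.67 and 3.37 FPKM in siNC and 2.38, 2.48 and 2.63 FPKM in siFOXD3. The ITGB8 groups overlapped, and the log2 fold change was -0.11 ± 0.12 (limma, Benjamini-Hochberg adjusted p = 0.410), and 0.16 with quantile normalization (adjusted p = 0.238). It was -0.20 without siNC replicate 1 and -0.0076 without siNC replicate 3, and was called in neither. On the longest annotated transcript, ITGB8 corresponds to an estimated 160 to 240 fragments per library, a counting error of 7.86% (CV) at the lowest, and the SE of its fold change was close in size to the fall of ITGB5, so a fall that small was not detectable for ITGB8 here.

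**Figure D3:**
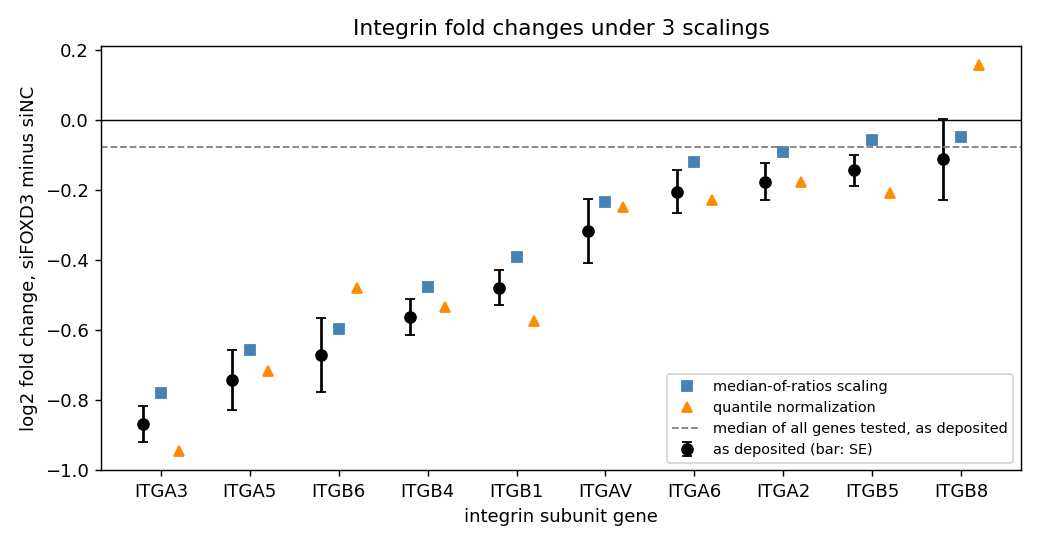
Log2 fold change of each integrin subunit (siFOXD3 minus siNC) as deposited (black, bar 1 SE), with median-of-ratios scaling (blue squares) and with quantile normalization (orange triangles). All values are below 0 apart from ITGB8 with quantile normalization (0.16), and the dashed line marks the median of all genes tested as deposited (-0.08).

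The order of the levels differed in part between the groups. In siNC it was ITGB1, ITGA3, ITGB5, ITGA6, ITGA2, ITGA5, ITGB4, ITGAV, ITGB6 and ITGB8, with neighbours apart in every library except ITGA2 with ITGA5 and ITGA5 with ITGB4, whose ranges overlapped. In siFOXD3 ITGB5 stood above ITGA3 and ITGB4 above ITGA5, and no neighbours overlapped. ITGB4 and ITGA5 were separated there by little, 19.1 FPKM at the lowest against 18.5 FPKM at the highest. Exons of 6 members (ITGA5, ITGA6, ITGAV, ITGB1, ITGB6 and ITGB8) overlap another annotated gene in GENCODE 29, antisense for all but ITGB6, and the use of strand in counting is not given in the sources used here, so their levels are uncertain to that extent.

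Because chains work in pairs, 10 ratios of partner FPKM were computed within each library. The groups did not overlap in 6 ratios, 4 lower and 2 higher in siFOXD3. The exact two-sided permutation p was 0.1 for each of these 6, and 0.167 after Benjamini-Hochberg adjustment over the 10, so none passed 0.05, which 3 libraries against 3 cannot reach. Ratios of other gene pairs were not computed, so how often pairs at large do not overlap is not known. Of single genes tested, 41.1% were lower in siFOXD3 with no overlap, a share that can be set beside the 4 lower ratios only. The share of genes higher with no overlap was not computed, so no single-gene background is given for the 6 ratios together. All ratios but ITGB4 per ITGA6 have ITGB1 or ITGAV as denominator, so they are not independent.

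Within the laminin receptors, ITGB4 per ITGA6 was 0.720, 0.754 and 0.744 in siNC and 0.615, 0.569 and 0.528 in siFOXD3. ITGA3 per ITGB1 was 0.686, 0.727 and 0.666 in siNC and 0.520, 0.523 and 0.533 in siFOXD3. Both ratios were lower in every siFOXD3 library than in any siNC library. ITGA6 per ITGB1 was higher in siFOXD3 (0.314 ± 0.0260) than in siNC (0.260 ± 0.0208), as was ITGA2 per ITGB1 (0.268 ± 0.00787 against 0.218 ± 0.0155). The fibronectin receptor ratio, ITGA5 per ITGB1, was 0.243, 0.179 and 0.185 in siNC and 0.170, 0.155 and 0.167 in siFOXD3. Its log2 difference was -0.29, -0.15 without siNC replicate 1, the library that stands high, and -0.16 with quantile normalization.

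Among the partners of ITGAV, ITGB6 per ITGAV was 0.522, 0.537 and 0.540 in siNC and 0.353, 0.409 and 0.409 in siFOXD3. The siNC libraries were close to each other in this ratio (SD 0.00942), and all lay above the siFOXD3 libraries. ITGB8 per ITGAV (0.207 ± 0.0151 in siNC and 0.236 ± 0.0164 in siFOXD3) and ITGB5 per ITGAV (5.85 ± 0.734 and 6.68 ± 0.429) overlapped between groups. ITGAV per ITGB1 and the summed alpha members per ITGB1 overlapped as well, the sum at 1.46 ± 0.0693 in siNC and 1.37 ± 0.0392 in siFOXD3.

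**Figure D4:**
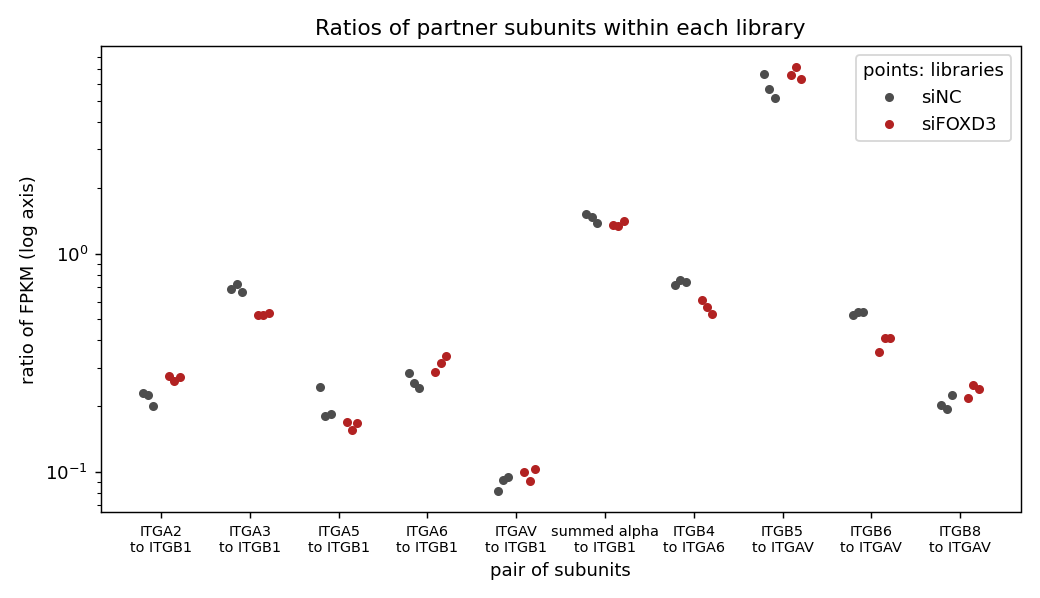
Ratio of FPKM of 2 partner subunits (log axis) in each siNC (grey) and siFOXD3 (red) library. ITGA3, ITGA5 per ITGB1, ITGB4 per ITGA6 and ITGB6 per ITGAV are lower in all siFOXD3 libraries, and ITGA2 and ITGA6 per ITGB1 are higher.

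The make-up of the pool differed in part between the groups. Shares of 1 pool add up to the whole, so they are not independent. ITGA3 was 47.4% ± 2.10 of the summed alpha FPKM in siNC and 38.4% ± 0.651 in siFOXD3. The shares of ITGA6 (17.8% ± 0.692 to 22.9% ± 1.42) and ITGA2 (14.9% ± 0.407 to 19.6% ± 0.571) were higher in every siFOXD3 library, although both messages fell in level. Of the summed beta FPKM, ITGB1 was 56.4% ± 0.992 in siNC and 52.9% ± 0.101 in siFOXD3, and ITGB5 was 29.1% ± 0.932 and 34.5% ± 0.235. The shares of ITGB4 (10.8% to 9.42%) and ITGB6 (2.68% to 2.02%) were lower in every siFOXD3 library. Those of ITGA5, ITGAV and ITGB8 overlapped between the groups.

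Most other integrin genes were low in these libraries: of 16 further subunits, 3 were tested. ITGB2, the beta chain of leukocyte integrins, fell from 11.8, 13.7 and 13.8 FPKM with siNC to 3.09, 3.03 and 3.66 FPKM in siFOXD3 (log2 fold change -1.73, limma, Benjamini-Hochberg adjusted p = 2.14e-07). Its leukocyte alpha partners were near 0, with ITGAM averaging 0.173 ± 0.0214 FPKM over the siNC libraries and ITGAL listed in 1 of them, at 0.0711 FPKM. Of 12 leukocyte markers, a list that holds ITGB2 itself, 5 reached 1 FPKM in some siNC library and 4 in some siFOXD3 library. Of the 5 tested, 4 were called lower: ITGB2 itself, LAPTM5, a lysosomal membrane protein of blood cells (2.06 ± 0.241 to 0.210 ± 0.0691 FPKM), CD14, a lipopolysaccharide co-receptor (2.92 ± 0.613 to 1.25 ± 0.304 FPKM), and CD68, whose call was lost with median-of-ratios scaling (-0.07, limma, Benjamini-Hochberg adjusted p = 0.298) and without any 1 siFOXD3 library (-0.17 to -0.15, lowest adjusted p = 0.0533). Over all genes tested 38.7% were called lower. LAPTM5 was under 1 FPKM in every siFOXD3 library and passed the filter through siNC alone. CORO1A, an actin-binding protein of leukocytes, was not called. The part of these markers in the ITGB2 values was not tested. The summed level of the 12 was 90.3 to 98.4 FPKM in siNC and 72.9 to 73.5 FPKM in siFOXD3, mostly CD68, a lysosomal protein (74.0 ± 4.74 and 66.0 ± 0.820 FPKM). The common leukocyte antigen PTPRC was at 0.309 FPKM or less in every library, and CD3E was listed in no siNC library.

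ITGAE, the alpha chain of a receptor for E-cadherin, rose from 3.30 ± 0.523 to 5.03 ± 0.132 FPKM (log2 fold change 0.49). ITGA2B, the platelet alpha chain, fell from 1.32 ± 0.0977 to 0.740 ± 0.0174 FPKM (-0.42), and was not called with quantile normalization (-0.04, limma, Benjamini-Hochberg adjusted p = 0.746). ITGA2B was under 1 FPKM in every siFOXD3 library and passed the filter through siNC alone. Of 6 platelet markers, a list that holds ITGA2B, 2 reached 1 FPKM in some siNC library and 0 with siFOXD3, with a summed level of 2.99 to 3.15 FPKM in siNC and 1.40 to 1.76 FPKM in siFOXD3. Their part in the ITGA2B values was not tested. ITGB3, the other classic partner of ITGAV, did not pass the filter and was at 1.01, 0.988 and 1.12 FPKM in siNC and 0.104, 0.0835 and 0.0256 FPKM in siFOXD3. ITGA1, a collagen-binding chain, averaged 1.08 ± 0.160 FPKM with siNC and 0.244 ± 0.101 FPKM with siFOXD3, also below the filter. With no filter, 7 of the further subunits were called lower in place of 2, and 1 higher. Over all 17787 symbols, 5543 were then called lower and 3365 higher. The added calls are of subunits at low FPKM that had not passed the filter.

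Ligands of these receptors were mostly lower. Of 47 listed, 31 were tested, of which 23 fell and 3 rose, with a median log2 fold change of -0.50; over all genes tested 38.7% fell and 27.2% rose, with a median of -0.08. LAMA3 and LAMB3, laminin chains of epithelial basement membranes, fell: LAMA3 went from 28.6 ± 4.41 to 10.2 ± 0.953 FPKM and LAMB3 from 130 ± 5.20 to 50.6 ± 2.69 FPKM (log2 fold changes -1.39 and -1.35). FN1, fibronectin, the ligand of ITGA5-ITGB1, stood at 843, 653 and 751 FPKM in siNC and 310, 288 and 309 FPKM in siFOXD3 (-1.30). ICAM1, the ligand of ITGB2 integrins, fell from 47.1 ± 2.90 to 11.9 ± 0.679 FPKM (-1.90). The collagen chains COL6A2 (16.4 ± 2.32 to 1.38 ± 0.284 FPKM, -2.87) and COL6A1 (-1.66) fell too. Osteopontin, the RGD protein encoded by SPP1, went the other way, by 2.22 on the log2 scale. TGFB1, whose latent form is a ligand of ITGAV with ITGB6 or ITGB8, fell from 33.6 ± 1.23 to 23.4 ± 0.559 FPKM (-0.50).

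Of 43 listed genes whose proteins join integrins to the cytoskeleton, 41 were tested, of which 24 fell and 4 rose, with a median log2 fold change of -0.21. Falls also outnumbered rises over all genes tested, at 38.7% against 27.2%, with a median of -0.08. NEDD9, a docking protein downstream of integrins, fell from 46.2 ± 2.75 to 15.1 ± 0.798 FPKM (-1.55), and LIMS2, a LIM protein that binds integrin-linked kinase, from 3.65 ± 0.280 to 0.372 ± 0.156 FPKM (-1.77). TGFB1I1 (-1.11) and LPXN (-0.97), adaptors of the paxillin family, fell too. LIMS2, TGFB1I1 and LPXN were under 1 FPKM in every siFOXD3 library and passed the filter through siNC alone. Their being tested thus depended on the group where they were higher, and they are counted among the 24. The actin cross-linker FLNA, which competes with talin for beta tails, rose from 319 ± 20.9 to 391 ± 9.83 FPKM (0.29), and ACTN4, also an actin cross-linker, was at 321 ± 19.0 and 325 ± 4.37 FPKM and was not called as deposited (0.02), but called lower with quantile normalization (-0.10, limma, Benjamini-Hochberg adjusted p = 0.0422). ITGB1BP1, which binds the ITGB1 tail and opposes its activation, had the largest rise in the list, from 15.5 ± 1.60 to 27.4 ± 1.34 FPKM (0.78). The activator talin (TLN1, -0.32), focal adhesion kinase (PTK2, -0.33) and integrin-linked kinase (ILK, -0.34) fell, while the kindlins FERMT1 (-0.17, limma, Benjamini-Hochberg adjusted p = 0.0745) and FERMT2 (0.01, adjusted p = 0.908) were not called. FERMT1 was called without siNC replicate 3 (-0.24, adjusted p = 0.0220).

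Membrane and hemidesmosome partners changed in both directions, as did the genes tested as a whole. Of 11, all tested, 6 fell and 4 rose, with a median log2 fold change of -0.22. Over all genes tested 38.7% fell and 27.2% rose, with a median of -0.08. COL17A1, a hemidesmosome collagen, fell from 3.64 ± 0.916 to 1.19 ± 0.195 FPKM (-1.07). PLEC, plectin, which links ITGB4 to keratins, rose from 29.3 ± 1.50 to 44.1 ± 1.85 FPKM (0.57), and CD151, a tetraspanin that binds ITGA3 and ITGA6, rose from 179 ± 4.46 to 211 ± 4.42 FPKM (0.23). ITGB4 and plectin thus changed in opposite directions. The tetraspanins CD82 (25.0 ± 3.40 to 7.63 ± 0.126 FPKM, -1.58) and CD9 (-0.22) fell and CD63 (0.31) rose, and CD47, an integrin-associated protein, fell from 170 ± 19.1 to 74.3 ± 0.712 FPKM (-1.18).

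Of 34 genes of integrin uptake and recycling 32 were tested, of which 17 fell and 9 rose (median log2 fold change -0.22), beside 38.7% lower, 27.2% higher and a median of -0.08 over all genes tested. RAB25, a small GTPase that returns ITGA5-ITGB1 to the surface, fell from 164 ± 6.21 to 102 ± 5.97 FPKM (-0.68), with RAB11FIP1 (-0.59), a recycling effector, and CLIC3 (-0.80), which takes part in integrin recycling from late endosomes. DAB2, a clathrin adaptor that binds beta tails, fell from 7.63 ± 1.02 to 2.91 ± 0.357 FPKM (-1.14). AP2M1, a subunit of the clathrin adaptor AP-2, rose from 300 ± 26.8 to 392 ± 2.42 FPKM (0.39), and RAB21, a GTPase that binds integrin alpha tails, rose by 0.49. RAB7A, of late endosomes, was at 185 ± 4.03 and 182 ± 4.89 FPKM and was not called as deposited (-0.02), at 0.07 with median-of-ratios scaling, and called lower with quantile normalization (-0.13, limma, Benjamini-Hochberg adjusted p = 0.0149).

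**Figure D5:**
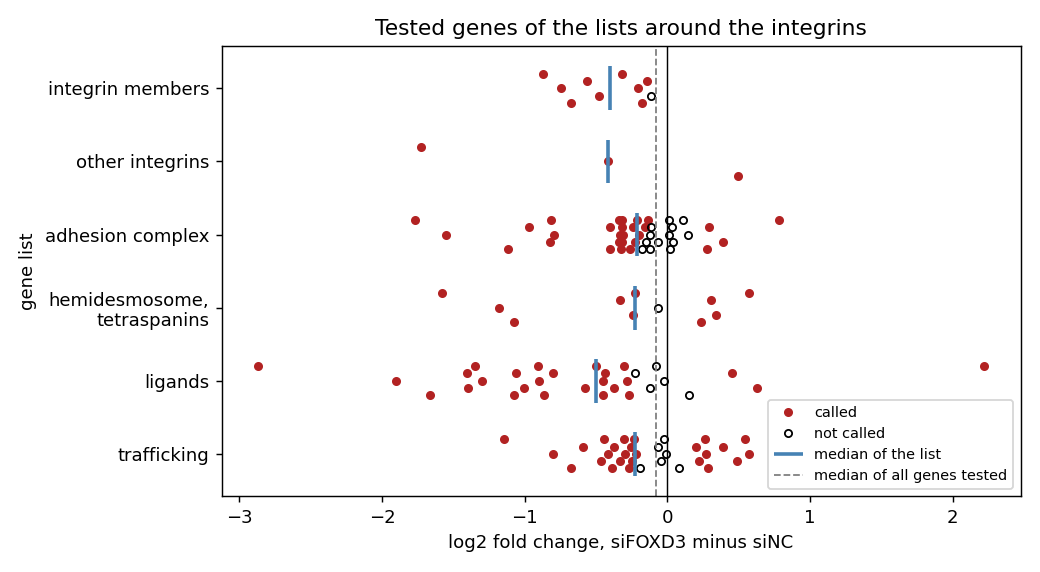
Log2 fold change (siFOXD3 minus siNC) of each tested gene in the integrin list and the 5 lists around it, filled red where called and open where not, with the list median in blue. The ligand median lies at -0.50 and the integrin median at -0.40, and the dashed line marks all genes tested (-0.08).

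The genes whose values over the 6 libraries were most like those of ITGA3, the called member with the largest fall, were LAMB2 (Pearson r = 0.9997), a laminin chain, STX16 (r = 0.9996), a SNARE protein, and TMCC2 (r = 0.9995). The likeness is a description over libraries that fall into 2 groups, so it mainly reflects the difference between groups: 3678 of the genes tested had r of at least 0.9 with ITGA3. LAMB2 fell from 38.7 to 21.8 FPKM and STX16 from 52.0 to 31.1 FPKM, group means over 3 libraries.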

How the data were processed

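Messenger RNA of A549 cells was measured in 6 libraries, 3 siNC and 3 siFOXD3, with groups and replicate numbers from the sample titles. TopHat, Cufflinks and hg19 are named per the submitters' processing notes, and the sources used here give no version, annotation or strand handling. Values in the deposited tables are FPKM by gene symbol, per the file headers. Rows of 1 symbol were summed and an absent symbol set to 0. FPKM values are not counts, so limma 3.58.1 (R 4.3.3; lmFit, eBayes with trend and robust) was run on log2(FPKM + 1), with the group as the only term, on genes with at least 1 FPKM in at least 3 libraries, and Benjamini-Hochberg adjustment over all of them. Depth, which the files do not hold, was estimated from the spacing of low FPKM values of genes with 1 transcript, taking fragments as 150 bases long; estimated fragments cover counting error only. The fit and the depth step were tested on simulated data. Of log2 changes of 0.25, 0.5 and 1, the fit recovered 12.1%, 68.2% and 94.1%, with 4 false calls. That simulation changed 200 genes, fewer than the 8278 called here, so recovery in these data may differ. The changed genes were drawn above a floor in siNC mean that ITGB8 lies under, so recovery among low genes was not tested. The depth estimate was off by at most 4.75% on simulated libraries. Those were made with the same assumed fragment length, so an error in that assumption is not covered. Python 3.11.15 with scipy 1.17.1 gave exact permutation tests of partner ratios.

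The members, the 5 lists around them and the 7 cell type lists were chosen with earlier results of these data known. Named are all members and, of each list around them, up to 4 called genes with the largest change and the 2 most abundant. For the called member with the largest fall, the 3 genes with the highest Pearson r are named; no member rose. ITGA1, ITGB3, ITGAL, ITGAM, ITGBL1, LAMA3, LAMB3, CD151, TLN1, FERMT1, FERMT2, PTK2, ILK, ITGB1BP1, RAB21, TGFB1, LAPTM5, CD14, CD68 and CORO1A were added after their values were seen.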

Additional observations from a re-analysis of the deposited data

How the results depend on the processing

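With median-of-ratios scaling ITGA2 (-0.091), ITGA6 (-0.12) and ITGB5 (-0.057) were no longer called, leaving 6 members called lower. Over all 12555 genes tested, 4154 were then called lower and 4140 higher. Quantile normalization turned ITGB8 to 0.16, left 1 further integrin subunit called lower, and moved the log2 differences of the ratios ITGAV to ITGB1 (0.31), summed alpha members to ITGB1 (-0.023), ITGB6 to ITGAV (-0.29), ITGB8 to ITGAV (0.49), ITGB5 to ITGAV (0.054) and ITGA5 to ITGB1 (-0.16). It also turned ACTN4 to -0.10, then called lower, and median-of-ratios scaling turned RAB7A to 0.067. The cause of these moves was not tested. With no filter 7 further subunits were called lower and 5 ligands higher, beside 5543 lower and 3365 higher over all 17787 symbols. At 5 FPKM or more there were 1 further subunit lower, 0 higher and 1 ligand higher, where fewer genes were tested. ITGB8 was then not tested. Leaving out 1 library gave 8 to 9 members called lower, beside 4395 to 4959 genes called lower over all genes tested. ITGA2 was then at -0.20 to -0.15, ITGA6 at -0.25 to -0.15, ITGB5 at -0.16 to -0.13 and ITGB8 at -0.20 to -0.0076. ACTN4 was at -0.014 to 0.065, RAB7A at -0.038 to 0.00085, CORO1A at -0.081 to 0.11 and FERMT2 at -0.045 to 0.053. The replicate block changed no member's call (9 called lower; 3354 genes higher and 4818 lower in all). Same-numbered libraries correlated at r = 0.061, 0.163 and 0.115 in their deviations from the group means, each library best with its own number. Differently numbered ones correlated at r = -0.119 to 0.026. No pairing is given beyond the shared number, and whether same-numbered libraries share a batch was not tested.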

Other observations

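ITGBL1, a secreted protein with repeats like those of integrin beta chains that forms no receptor, was looked at after its values were seen. It averaged 12.5 ± 1.87 FPKM over the siNC libraries and 5.05 ± 0.163 FPKM over the siFOXD3 libraries (SD, n = 3 each). The fall was 1.14 ± 0.10 on the log2(FPKM + 1) scale (SE, limma, Benjamini-Hochberg adjusted p = 4.70e-06). Of the alveolar type II markers that were tested, ABCA3, a lipid transporter of lamellar bodies, went from 4.75 ± 0.133 to 2.65 ± 0.476 FPKM and LAMP3, a lysosomal membrane protein, from 2.93 ± 0.286 to 1.34 ± 0.135 FPKM, and both were called lower. Over all genes tested 38.7% were called lower.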
